A study of Mus musculus with 45 samples.

Results

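Plasma cells grown for 10 days from mouse splenic B cells by a Toll-like receptor (TLR) route were compared with the resting B cells from which such cultures start. The tested libraries are the 3 wild type samples of day 10 labelled TLR, and they were set against the 3 wild type samples of day 0 labelled None; these 6 samples are part of 45 in the series, and every gene of the table was considered. B cells were taken from spleens of wild type C57BL/6 mice, given as 7 weeks old for both groups, with a kit that removes CD43-bearing cells, and were checked by the submitters for a purity above 95%. The day 10 cells had been seeded on irradiated mouse L cells expressing CD40L with 5 µg/mL LPS (lipopolysaccharide, the bacterial ligand of TLR4), 50 ng/mL IL-4 and 50 ng/mL IL-5, moved off the L cells on day 2, and re-seeded on day 4 in 10 ng/mL IL-6 and 100 ng/mL APRIL with amino acids and lipids. The day 0 cells had no culture and no stimulus. Groups used for comparison were day 4 and day 7 of the same TLR culture and day 10 of a parallel culture labelled BCR, in which 12 µg/mL anti-IgM/IgG F(ab')2 fragments took the place of LPS. Each group had 3 samples, and nothing in the labels says whether the numbers M1 to M3 mark animals or cultures, so p-values measure the spread between these samples.

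A resting follicular B cell carries membrane IgM and IgD, presents antigen on MHC class II, and holds its identity through factors such as PAX5, EBF1 and BACH2. When it becomes a plasma cell, BLIMP-1 (the product of Prdm1) and IRF4 act to shut down that programme, and XBP1 drives the secretory one. Immunoglobulin mRNA is processed to the secreted form, and the endoplasmic reticulum (ER) expands to fold and export antibody. The unfolded protein response, through the sensors IRE1, PERK and ATF6, is the signalling system that matches ER capacity to that load.

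Values are deposited on a log2 scale with a floor of 3.04, which stands for 0 reads; a step of 1 is a 2-fold change for well expressed genes and understates the change of genes near the floor. Reads recovered from these values came to 28072256, 27307102 and 20373331 in the day 10 TLR libraries, against 21849646, 20277733 and 21679045 in the day 0 libraries. The authors' size factors, as recovered, were 0.586, 0.650 and 0.456 at day 10 TLR and 1.348, 1.228 and 1.339 at day 0, so a given low value rests on fewer reads at day 10. Of the libraries, day 10 TLR replicate 2 stands apart in markers of myeloid cells: the 18 genes of a myeloid list summed to 123708 normalised reads there, against 10482 and 19447 in replicates 1 and 3 of the group and 3943 to 4972 at day 0. Day 0 replicate 1 stands apart in erythroid and platelet markers, with 8031 normalised reads against 839 and 719 in its 2 fellow libraries and 104 to 2095 at day 10 TLR.

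**Figure D1:**
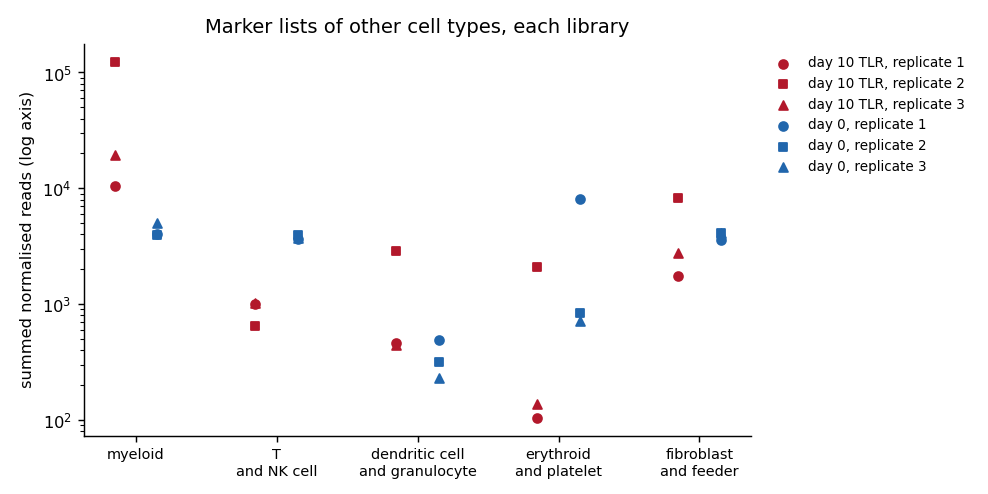
Summed normalised reads (log axis) of 5 marker lists of cell types other than B-lineage cells, one point per library, day 10 TLR in red and day 0 in blue. Day 10 TLR replicate 2 (red square) lies above its fellows in 4 lists, with 123708 normalised reads of myeloid markers, and day 0 replicate 1 (blue circle) has 8031 of erythroid and platelet markers.

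All 7 plasma cell markers chosen for the check (Sdc1, Prdm1, Xbp1, Irf4, Jchain, Tnfrsf17 and Mzb1) were higher at day 10 TLR, and the B cell markers Ms4a1, Cd79b, Pax5, Cr2 and Fcer2a were lower; Cd79a, the signalling chain of the B cell receptor, differed by -0.51 and did not pass. These are bulk samples, so fewer cells of a type and less RNA per cell cannot be told apart. T and NK cell markers, which a CD43 depletion is meant to remove, summed to 650 to 1031 normalised reads at day 10 TLR and 3680 to 3971 at day 0; Ncr1 and Klrb1c, which define NK cells, had no read in any day 10 TLR library. The fibroblast and feeder list would catch L cells carried over. It summed to 1754, 8256 and 2751 at day 10 TLR and to 3573, 4105 and 4118 at day 0. Of its 12 genes tested, 6 passed as higher than at day 0 and none as lower, with a median difference of 0.87. Among all genes tested, 22.9% were higher and 23.1% lower. Against day 4, 10 of the 12 feeder list genes were lower and none was higher, where 21.9% of all genes were lower. The part of other cells in the results below was not tested.

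Across 19497 genes tested with limma on the deposited values, 46.0% passed an adjusted p of 0.05 (Benjamini-Hochberg): 4461 genes (22.9%) were higher at day 10 TLR and 4509 (23.1%) were lower. With each library scaled to the same median the counts were 3486 higher and 5187 lower, and with GC and length correction 4667 and 6380. By more than 3 log2 units, 572 genes were higher and 189 were lower. Of the genes called, 96.5% did not overlap between the groups, as did 53.9% of all genes tested. Without day 10 TLR replicate 2 the counts were 3893 higher and 4059 lower, and without day 0 replicate 1 they were 3847 and 3844.

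The antibody genes changed most. Ighg1, the constant gene of IgG1, read 23.46, 22.96 and 22.88 at day 10 TLR and 6.01, 9.23 and 8.69 at day 0, where replicate 1 lies well under its fellows; the difference was 15.12 ± 0.59 (SE; adjusted p = 1.09e-12), 14.14 without that replicate and 15.75 without replicate 2. Ighg3 was 19.75, 19.18 and 19.07 at day 10 TLR against 7.37, 7.67 and 8.15 at day 0, and Ighg2b was 17.96, 17.35 and 17.60 against 6.77, 8.09 and 7.65. Neither gene's groups come near each other, with differences of 11.60 ± 0.40 and 10.13 ± 0.39. Ighe, the IgE constant gene, rose by 7.62 ± 0.41, Ighg2c by 6.70 ± 0.87 and Igha by 5.62 ± 0.53. Ighm rose too, with 21.05, 20.32 and 20.53 at day 10 TLR against 16.91, 16.81 and 16.91 at day 0 (3.76 ± 0.33, adjusted p = 3.92e-08). Ighd alone went down, to 10.79, 10.62 and 11.49 at day 10 TLR against 15.85, 15.96 and 15.69 at day 0 (-4.87 ± 0.28). Membrane IgD marks the resting mature B cell, and 7 of the 8 heavy chain constant genes rose.

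Among light chains, Igkc rose by 6.92 ± 0.36, Iglc1 by 6.05 ± 0.28, Iglc2 by 3.16 ± 0.19 and Iglc3 by 2.91 ± 0.36. The lambda constant genes are alike in sequence, so the split of reads between them is uncertain. Jchain, whose product links IgM and IgA into polymers, was 19.67, 19.98 and 20.48 at day 10 TLR and 8.88, 9.81 and 9.69 at day 0 (10.58 ± 0.41). Of 212 variable segments tested, 210 were higher and none was lower, where 22.9% of all genes were higher. A segment near 0 reads at day 0 could pass the filter through late culture libraries alone, and could then hardly be called lower. The count is therefore a description.

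Put as a share of all recovered reads, immunoglobulin genes held 66.5, 59.0 and 58.7% of the day 10 TLR libraries and 1.94, 1.94 and 2.00% of the day 0 libraries. The groups do not overlap; an exact two-sided permutation test gave p = 0.1, the smallest that 3 samples against 3 allow. Ighg1 was the top gene of every day 10 TLR library, with 24.1, 19.4 and 17.3% of the reads, whereas mt-Co1, a mitochondrial gene, led at day 0 with 1.73, 1.97 and 1.71%. The 10 most abundant genes held 52.7, 46.0 and 44.4% of the reads at day 10 TLR against 7.39, 8.07 and 7.55% at day 0. The share of immunoglobulin genes over the culture was 1.96 ± 0.039% at day 0, 2.41 ± 0.45% at day 4, 39.7 ± 4.0% at day 7 and 61.4 ± 4.4% at day 10 (SD, n = 3 each), with most of the gain after day 4. Day 10 BCR libraries held 39.5, 24.9 and 52.2%, all under the lowest TLR library.

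**Figure D2:**
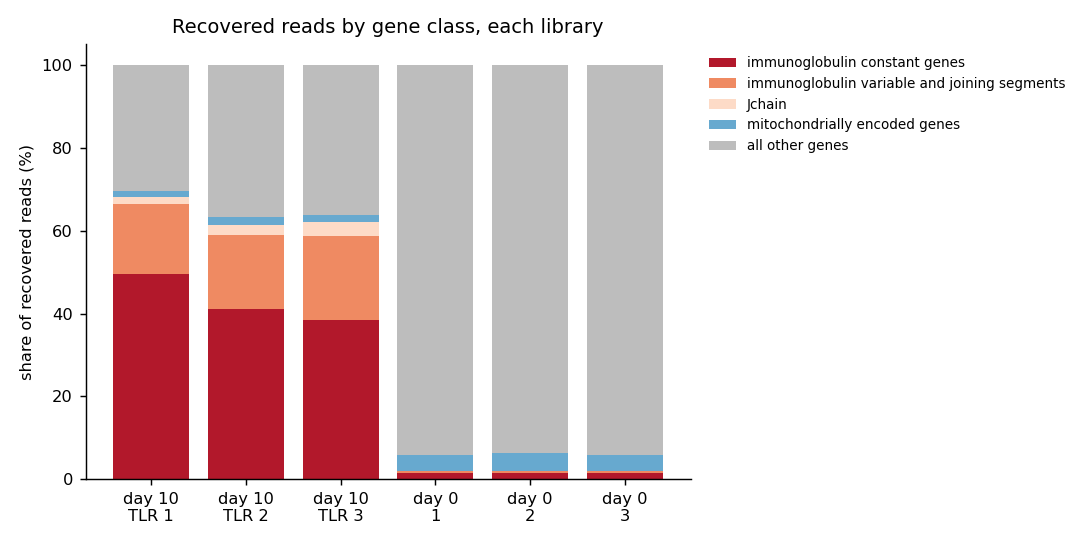
Share of recovered reads (%) by gene class in each library, stacked, day 10 TLR to the left and day 0 to the right. Immunoglobulin constant genes and variable and joining segments take 58.7 to 66.5% of the reads at day 10 TLR and 1.94 to 2.00% at day 0.

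The class make-up was read per kilobase of exon, so that genes of unequal length can be compared. Ighg1 made 73.4, 75.8 and 72.9% of all heavy chain constant reads per kilobase at day 10 TLR against 0.0196, 0.237 and 0.164% at day 0. Ighm made 19.0, 16.7 and 19.7% at day 10 TLR and 67.6, 64.1 and 69.8% at day 0, and Ighg3 made 5.79, 5.69 and 5.37% against 0.0615, 0.0784 and 0.114%. Ighd, at 32.2, 35.3 and 29.7% on day 0, was down to 0.0152, 0.0197 and 0.0369% at day 10 TLR. A pool of IgM and IgD thus gave way to one led by IgG1 with IgM next, although every class but IgD gained in level. Igkc made 93.5, 92.7 and 93.4% of light chain constant reads per kilobase at day 10 TLR and 71.0, 69.5 and 73.4% at day 0. Constant gene reads include unspliced switch-region transcripts and transcripts of unswitched alleles, which these values do not separate.

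Heavy chain segments with at least 10 reads numbered 105 in each day 10 TLR library and 96, 98 and 100 at day 0. Their effective number, the inverse of the summed squared shares, was 40.7, 37.9 and 37.7 at day 10 TLR and 43.2, 41.9 and 42.4 at day 0, lower in every day 10 TLR library than in any day 0 library; for kappa segments it was 38.8, 33.8 and 34.2 against 39.0, 38.7 and 39.8. Ighv1-26 was the most abundant heavy segment in all 6 libraries, at 8.56, 8.99 and 8.57% of heavy segment reads at day 10 TLR and 8.30, 8.24 and 8.58% at day 0. Heavy segment reads rested on 1453703 to 2045304 reads per library at day 10 TLR and on 20757 to 23949 at day 0, and short reads can be split between like segments.

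Plasma cell transcription factors rose, B cell factors fell. Prdm1 was 13.43, 13.46 and 13.51 at day 10 TLR against 6.01, 6.54 and 6.95 at day 0 (6.97 ± 0.31, adjusted p = 4.80e-12). Xbp1, which drives the secretory programme, was 16.52, 16.53 and 16.75 against 10.71, 10.66 and 10.97 (5.82 ± 0.28). Irf4 was 15.37, 15.44 and 15.39 against 12.96, 13.12 and 13.72 (2.13 ± 0.30, adjusted p = 1.23e-05). The 3 genes separate the groups in every library, Prdm1 by the widest margin. Of the 20 factors on the plasma cell list, 15 rose, where 22.9% of all genes were higher. The list's median difference was 2.24 against -0.02 over all genes tested. Bhlha15 (MIST1, a factor of secretory cells) rose by 5.40 ± 0.37, Creb3l2 (an ER-bound transcription factor) by 4.79 ± 0.27 and Zbtb32 by 3.55 ± 0.30. Ikzf3 (Aiolos), at -2.29, and Zbtb20, at -1.26, fell although they stand on that list; Aiolos and ZBTB20 are known in long-lived plasma cells. Day 10 also stood above day 4 for Prdm1 (3.68), Xbp1 (2.63) and Irf4 (1.94), while Nfil3 was 3.14 below day 4.

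On the B cell list, 17 of 20 factors fell and none rose, with a median of -2.31, where 23.1% of all genes were lower. Pax5, the master regulator of B cell identity, was 11.23, 10.61 and 11.25 at day 10 TLR and 14.76, 14.67 and 14.50 at day 0 (-3.61 ± 0.20, adjusted p = 6.65e-11). Bach2, a repressor of Prdm1, was 8.99, 8.64 and 9.39 against 12.77, 12.83 and 12.67 (-3.75 ± 0.20), and Bcl6, the germinal centre repressor, was 7.96, 7.77 and 7.95 against 10.76, 10.71 and 10.92 (-2.90 ± 0.14). Day 10 values lie below every day 0 value for all 3. Klf2, a quiescence and homing factor, fell by 5.00 on the log2 scale, Ebf1 by 3.25, Ets1 by 3.06 and Ciita, the activator of MHC class II genes, by 2.34. Spi1, Tcf3 and Id3 did not pass, with differences of -0.24, -0.37 and -1.24. By the list's median, most of this loss stood by day 4. Relative to day 0 the median was -1.88 at day 4, -1.62 at day 7 and -2.30 at day 10. By member, 8 of the 20 were below day 4 at day 10 and 3 were above it, where 21.9% of all genes were below and 20.1% above. Pax5 and Bach2 differed from day 4 by -1.63 and -0.90, and Bcl6 did not pass, at -0.35.

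**Figure D3:**
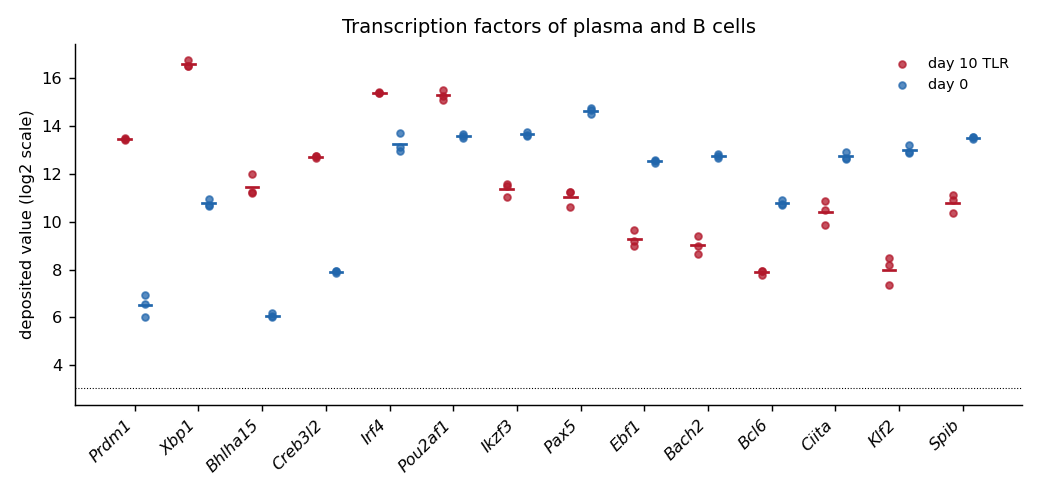
Deposited values (log2 scale) of 14 transcription factors in each library, with group means as bars, day 10 TLR in red at the left of each pair and day 0 in blue at the right; the dotted line is the value of 0 reads. Prdm1, Xbp1, Bhlha15, Creb3l2, Irf4 and Pou2af1 lie higher at day 10 TLR and the other 8 lie lower, with no overlap in any of the 14.

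Surface genes changed in the same sense. Of 24 plasma cell surface and survival genes, 18 rose and 1 fell, with a median of 2.33. Over all genes tested, 22.9% were higher and 23.1% lower. Sdc1, which encodes the plasma cell marker CD138, was 11.55, 10.87 and 10.86 at day 10 TLR and 7.62, 7.47 and 7.51 at day 0 (3.56 ± 0.32). Tnfrsf17 (BCMA, the receptor of APRIL) was 6.61, 6.41 and 6.43 against 3.04, 3.04 and 3.48, so it was at or next to 0 reads before culture. Slpi, a secreted protease inhibitor, rose by 8.72 ± 0.52, Thbd (thrombomodulin) by 5.84 ± 0.25, Ly6c2 by 4.97 ± 0.25 and Cd28 by 3.83 ± 0.49. Il6st and Il6ra, the chains of the IL-6 receptor, rose by 2.94 and 1.18. Cd38 fell by 2.01, and Cxcr4, Itga4 and Mcl1 did not pass, at -0.38, -0.25 and 0.45; against day 4 these 3 were higher, by 2.72, 2.78 and 1.70.

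Of 22 B cell receptor and coreceptor genes, 17 fell and 1 rose, where 23.1% of all genes were lower and 22.9% higher. Cr2 (CD21, the complement receptor) fell furthest of the protein-coding genes compared, with 6.84, 6.61 and 7.87 at day 10 TLR and 14.47, 14.42 and 14.47 at day 0 (-7.35 ± 0.38). Fcer2a (CD23) fell by 4.63, Pecam1 by 3.43 and Cd22 by 3.38. Ms4a1 (CD20) fell less, with 13.16, 13.20 and 14.07 against 15.12, 15.25 and 15.07 (-1.67 ± 0.30, adjusted p = 0.000177). The gene that rose was Lilrb4a, by 2.45; without day 10 TLR replicate 2, the library with the most myeloid reads, it was 1.28 higher and did not pass (adjusted p = 0.106), and without replicate 1 it was 3.54 higher. In the receptor's signalling pathway 17 of 24 genes fell, led by Blk (-2.95), Bank1 (-2.95), Ptpn6 (-2.88) and Prkcb (-2.65). Blnk, the adaptor below SYK, rose by 0.68; Plcg2, Vav1 and Rasgrp3 did not pass, at 0.10, -0.05 and -0.19.

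For antigen presentation, 11 of 18 genes fell and 2 rose, where 23.1% of all genes were lower and 22.9% higher. H2-Aa, the alpha chain of I-A, was 13.93, 13.20 and 13.89 at day 10 TLR against 15.64, 15.84 and 15.91 at day 0 (-2.12 ± 0.19). H2-DMb1 and H2-DMb2, peptide loading chains, fell by 3.08 and 2.85. Cd74, the invariant chain, differed by -0.39 and did not pass, Cd80 rose by 2.62 and Ctss, a lysosomal protease, by 0.58; without day 10 TLR replicate 2 Ctss did not pass (0.48, adjusted p = 0.0749), nor did it without day 0 replicate 1 (0.53, adjusted p = 0.0592). The genes of the list took 0.484, 0.258 and 0.277% of reads at day 10 TLR and 1.84, 1.76 and 2.01% at day 0. Immunoglobulin reads enter that total, so the shares fall further than the levels of the genes.

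Of the receptors that could sense LPS, Tlr4 and Ly96 (its partner MD-2) rose by 0.95 and 2.22, while Cd180 and Ly86 (the RP105 and MD-1 pair) fell by 1.16 and 1.67. The call of Tlr4 was lost without day 10 TLR replicate 2 (0.64, adjusted p = 0.174) or 3 (0.87, adjusted p = 0.089) and without day 0 replicate 1, 2 or 3 (0.94, 0.99 and 0.91, adjusted p = 0.0751, 0.0573 and 0.0814). Tlr1 fell by 3.19, Tlr9 by 2.24 and Tlr3 by 2.02, and Tlr7, Tlr2 and Myd88 did not pass. In all, 8 of 17 genes fell and 3 rose, where 23.1% of all genes were lower and 22.9% higher. Homing genes went both ways: Ccr7 and Cxcr5, which direct B cells into lymph nodes and follicles, fell by 4.85 and 3.5, and S1pr1, the egress receptor, fell by 2.84. S1pr2, Cd44, Itgb1 and Cxcr3 rose by 2.74, 2.71, 2.20 and 1.08. Of the 22 homing genes 12 fell and 7 rose, beside the same shares of all genes. Ccr10 also passed as higher, on 9 reads in all against 0.

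The secretory pathway rose nearly as a whole. Of 31 ER chaperones and folding enzymes 30 rose; of 34 genes for translocation into the ER and oligosaccharide transfer 31 rose and none fell; of 36 genes for vesicle export 34 rose and 1 fell; of 25 genes for ER-associated degradation 20 rose and none fell. Medians were 2.81, 2.34, 1.58 and 1.60, beside -0.02 over all genes. The background is 22.9% of genes higher, and without day 10 TLR replicate 2 the counts were 30, 31, 32 and 19.

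Prdx4, an ER peroxiredoxin, was 13.42, 13.38 and 13.74 at day 10 TLR and 7.62, 8.09 and 7.91 at day 0 (5.64 ± 0.27). Hsp90b1 (GRP94), a chaperone of immunoglobulin chains, was 17.48, 17.80 and 18.25 against 13.32, 13.34 and 13.73 (4.38 ± 0.33), and Mzb1, its cochaperone in plasma cells, was 15.67, 14.57 and 14.76 against 10.45, 10.36 and 10.70 (4.50 ± 0.39). Hspa5 (BiP), the heavy chain binding protein, rose by 2.97. Creld2, Sdf2l1 and Manf rose by 4.77, 4.48 and 3.96, and the exception was Cnpy3, a chaperone of Toll-like receptors, which fell by 1.90. In translocation, Ssr4, a subunit of the translocon-associated complex, was 14.93, 14.34 and 14.35 against 9.71, 9.71 and 9.76 (4.81 ± 0.28), and Sec61b, of the channel itself, rose by 2.88. Sec24d, a cargo adaptor of COPII vesicles, was 12.23, 11.99 and 12.00 against 6.92, 6.83 and 6.97 (5.17 ± 0.20); its paralogue Sec24b fell by 0.65, and Sec24a and Sec24c rose by 2.50 and 0.40. Derl3, of the degradation channel, rose by 5.68 ± 0.55 and Sel1l by 3.84 ± 0.22.

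The response's own sensors and factors were mixed: 12 of 18 rose and 1 fell, where 22.9% of all genes were higher and 23.1% lower. Ern1 (IRE1) was 12.50, 12.22 and 12.14 at day 10 TLR and 8.03, 7.99 and 7.95 at day 0 (4.30 ± 0.27); Atf6 rose by 1.98 and Eif2ak3 (PERK) by 0.46. Ddit3 (CHOP) and Atf4, downstream of PERK, did not pass, at -0.45 and -0.33, and Ppp1r15a (GADD34), a phosphatase subunit of that branch, was 10.50, 9.48 and 9.23 against 12.58, 12.05 and 12.58 (-2.67 ± 0.43, adjusted p = 6.01e-05). Gene-level values do not show splicing of Xbp1 or phosphorylation of the sensors. A second gene ID under the symbol Ddit3 is near 0 reads throughout, and the values here are those of ENSMUSG00000025408.

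Some promoters of the chaperones that rose carry the ER stress response element, ERSE, spelled CCAAT and CCACG with any 9 bases between them, a site known to bind NF-Y with ATF6. In RefSeq promoters of build GRCm38.p6 (250 bases before to 50 after the start; 24 of the 31 chaperone genes matched) it was found on either strand in 7 of 31 chaperone promoters (22.6%), in 2 of 20 degradation promoters (10.0%) and in 39 of all 32851 (0.119%). None of 27 translocation, 34 vesicle or 16 sensor promoters held it. The 250 bases before the start are shown for 6 of these genes because the motif is rare among all promoters and all 6 genes passed as higher; capitals mark the ERSE, in either orientation.
Hspa5: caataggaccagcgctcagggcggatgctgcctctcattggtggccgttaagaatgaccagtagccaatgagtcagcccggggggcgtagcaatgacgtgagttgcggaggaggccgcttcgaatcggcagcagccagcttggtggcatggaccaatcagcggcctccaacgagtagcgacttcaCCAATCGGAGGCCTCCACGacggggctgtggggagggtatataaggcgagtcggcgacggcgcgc
Hsp90b1: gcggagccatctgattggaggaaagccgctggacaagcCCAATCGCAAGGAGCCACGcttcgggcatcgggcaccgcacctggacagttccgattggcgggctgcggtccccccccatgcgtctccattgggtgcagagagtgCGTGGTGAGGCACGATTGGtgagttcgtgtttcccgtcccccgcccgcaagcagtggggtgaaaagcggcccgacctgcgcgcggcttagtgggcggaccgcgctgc
Creld2: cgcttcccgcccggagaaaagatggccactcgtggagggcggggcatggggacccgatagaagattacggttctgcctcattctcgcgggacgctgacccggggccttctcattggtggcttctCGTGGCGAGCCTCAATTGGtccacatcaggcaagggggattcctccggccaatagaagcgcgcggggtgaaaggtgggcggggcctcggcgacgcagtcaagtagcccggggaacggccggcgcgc
Dnajc3: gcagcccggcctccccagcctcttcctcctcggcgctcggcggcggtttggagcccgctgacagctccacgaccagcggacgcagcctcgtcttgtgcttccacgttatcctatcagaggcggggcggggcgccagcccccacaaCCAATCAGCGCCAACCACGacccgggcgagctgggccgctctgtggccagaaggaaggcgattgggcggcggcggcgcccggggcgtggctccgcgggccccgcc
Derl3: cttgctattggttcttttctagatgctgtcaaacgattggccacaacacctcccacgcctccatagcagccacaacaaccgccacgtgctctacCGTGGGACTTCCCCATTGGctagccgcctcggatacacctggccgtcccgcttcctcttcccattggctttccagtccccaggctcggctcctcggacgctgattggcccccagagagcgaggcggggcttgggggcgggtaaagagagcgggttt
Pdia6: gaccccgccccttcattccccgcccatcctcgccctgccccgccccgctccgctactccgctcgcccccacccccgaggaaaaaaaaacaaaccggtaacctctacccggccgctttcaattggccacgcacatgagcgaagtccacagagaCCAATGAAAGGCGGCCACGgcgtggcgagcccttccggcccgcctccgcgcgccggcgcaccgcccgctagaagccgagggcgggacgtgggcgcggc
Coordinates of these stretches are chr2:34771840-34772089 (plus strand) for Hspa5, chr10:86705445-86705694 (minus strand) for Hsp90b1, chr15:88819396-88819645 (plus strand) for Creld2, chr14:118937682-118937931 (plus strand) for Dnajc3, chr10:75893148-75893397 (plus strand) for Derl3 and chr12:17266339-17266588 (plus strand) for Pdia6. The ERSE of Hspa5 begins 65 bases before the start and that of Pdia6 98 bases before it, and Hsp90b1 has 2 copies, at 212 and 107 bases. All 9 listed genes with the motif were tested; 8 passed as higher, Calr, Canx, Creld2, Derl3, Dnajc3, Hsp90b1, Hspa5 and Pdia6, and Syvn1 did not pass at 1.02. Looking at every tested gene with an ERSE, 11 of 20 were higher and 1 was lower, beside 24.4% higher over the 12102 tested genes with a promoter. Of the 11 outside all lists, 3 were higher and 1 lower. The lists were made by known function, so their promoter shares describe the lists, and the part of the ERSE was not tested. The unfolded protein response element TGACGTGG was found in 6 of 34 vesicle promoters (17.6%: Copb1, Copb2, Kdelr3, Sec23a, Sec24d and Stx5a), against 0.676% of all promoters; in the 150 bases before the start it was in 3 of them (8.82%), against 0.417%. It was in 2 of 31 chaperone promoters (6.45%) and 2 of 20 degradation promoters (10.0%), and in none of the 27 translocation or 16 sensor promoters. ERSE matches shared bases with this motif in 2 promoters and with the Y box in 3.

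Genes of amino acid supply were higher as well. Of 19 ATF4 target and amino acid synthesis genes, 17 rose and none fell, with a median of 2.37, although Atf4 mRNA did not pass. For this and the next 2 lists, the shares over all genes tested were 22.9% higher and 23.1% lower. Asns (asparagine synthetase) was 11.03, 10.99 and 11.33 at day 10 TLR and 4.97, 4.85 and 5.33 at day 0 (6.07 ± 0.21, adjusted p = 3.94e-13). Pycr1, for proline, was 10.88, 10.17 and 10.24 against 4.77, 4.13 and 5.01 (5.79 ± 0.34), and Chac1 and Atf5 rose by 5.40 and 4.38. Among transporters 10 of 18 rose and 2 fell: Slc3a2 and Slc7a5, the chains of the large neutral amino acid exchanger, rose by 4.82 and 4.12, and Slc7a11, the cystine carrier, by 4.24. Aminoacyl-tRNA synthetases rose in 14 of 20 cases, led by Yars at 2.40. Against day 4, however, 11 of the 19 ATF4 list genes were lower and 3 higher, where 21.9% of all genes were lower and 20.1% higher. Psat1 differed from day 4 by -2.79 and Cth by -3.49. The C/EBP-ATF response element TGATGNAA was in 8 of 21 promoters of the ATF4 list (38.1%) and 5 of 12 synthetase promoters (41.7%), against 3.97% of all. The promoters of Asns and Pycr1 are shown with it in capitals, as 150 bases before the start.
Asns: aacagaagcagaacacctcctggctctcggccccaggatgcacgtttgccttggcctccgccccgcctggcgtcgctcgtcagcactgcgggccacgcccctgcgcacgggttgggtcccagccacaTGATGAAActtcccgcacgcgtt
Pycr1: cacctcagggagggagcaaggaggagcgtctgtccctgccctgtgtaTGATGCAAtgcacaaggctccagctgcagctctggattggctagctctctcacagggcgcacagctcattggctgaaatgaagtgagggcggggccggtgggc
These lie at chr6:7693210-7693359 (minus strand) for Asns and chr11:120643749-120643898 (minus strand) for Pycr1. Among all 360 tested genes with this element, 108 (30.0%) were higher and 78 (21.7%) lower, beside 24.4% and 23.8% of all tested genes with a promoter; of the 328 in no list, 87 (26.5%) were higher and 74 (22.6%) lower. For the genes that fell, the Y box CTGATTGG, part of the conserved module that RFX and CIITA work through, was in 4 of 14 MHC class II promoters (28.6%; H2-Aa, H2-Eb1, H2-Eb2 and H2-Oa) against 4.1% of all, and all 4 genes were lower at day 10 TLR. H2-Aa and H2-Eb1 are shown, with the Y box in capitals.
H2-Aa: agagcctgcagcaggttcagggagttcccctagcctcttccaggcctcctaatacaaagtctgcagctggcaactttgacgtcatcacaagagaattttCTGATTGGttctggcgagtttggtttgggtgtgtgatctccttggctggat
H2-Eb1: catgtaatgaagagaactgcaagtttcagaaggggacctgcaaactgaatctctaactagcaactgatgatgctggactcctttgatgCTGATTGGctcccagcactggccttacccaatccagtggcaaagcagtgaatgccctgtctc
They lie at chr17:34287824-34287973 (minus strand) for H2-Aa and chr17:34305717-34305866 (plus strand) for H2-Eb1. Among the 796 tested genes with a Y box anywhere in these promoters, 216 (27.1%) were higher and 163 (20.5%) lower, and of the 729 in no list 175 (24.0%) and 151 (20.7%). The lists were made from known targets or function, so their shares of the TGATGNAA element and the Y box describe the lists. The part of either element in the changes was not tested.

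Of 23 cholesterol synthesis genes 7 rose, 2 fell and 14 did not pass, where 22.9% of all genes were higher and 23.1% lower; the number that rose was 4 under median scaling and 8 without day 0 replicate 2. Of the same 23, 17 were below day 4 and none above it, where 21.9% of all genes were below day 4. Hsd17b7 fell by 1.09, while Fdps and Insig1 rose by 1.03 and 1.15. The sterol element TCACNCCAC was in 1 of 19 of their promoters (5.26%, Hmgcs1) against 1.24% of all. Of 18 glycolysis genes 4 were higher, close to that 22.9%, and 2 lower than at day 0, and 15 were below day 4. Hk2, a hexokinase, stood out at 11.93, 11.61 and 11.33 at day 10 TLR against 7.62, 7.41 and 7.68 at day 0 (4.05 ± 0.23), and Slc2a3, a glucose carrier, was 7.67, 7.66 and 7.43 against 10.37, 10.38 and 10.34 (-2.78 ± 0.32). Nuclear oxidative phosphorylation genes rose in 17 of 30 cases with a median of 0.57. The largest rise was Ndufa1 at 3.88, and under median scaling 11 passed. Against day 4, 4 of the 30 were above and 7 below, where 20.1% of all genes were above and 21.9% below. Of the 13 mitochondrially encoded genes 1 rose, mt-Atp8 by 1.16. Their share of reads was lower, with 1.26, 1.93 and 1.79% at day 10 TLR against 3.92, 4.54 and 3.98% at day 0, a total into which immunoglobulin reads enter.

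Ribosomal protein genes were lower where they passed. Of 35, 14 fell and none rose, with a median of -0.54, where 23.1% of all genes were lower. The count rests in part on single libraries: without day 10 TLR replicate 2 the number was 8, and without day 0 replicate 3 it was 9. Myc was 8.27, 7.83 and 8.01 at day 10 TLR and 11.59, 11 and 11.37 at day 0 (-3.28 ± 0.20), while Mxi1 and Mxd4, antagonists of MYC, rose by 1.91 and 0.99. Of the 24 genes of the MYC and ribosome biogenesis list 9 fell and 5 rose, where 23.1% of all genes were lower and 22.9% higher.

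Of 28 cell division genes 25 were higher than at day 0, and all 28 were lower than at day 4. Over all genes tested, 22.9% were higher than at day 0 and 21.9% lower than at day 4. Mki67 was 12.57, 12.95 and 12.84 at day 10 TLR against 10.12, 10.45 and 10.06 at day 0 (2.58 ± 0.24) and was 1.62 below day 4. Cdk1 was 8.69, 9.56 and 9.15 against 6.54, 6.69 and 6.57 (2.53 ± 0.18). The list's median relative to day 0 was 4.07 at day 4, 2.54 at day 7 and 1.41 at day 10. DNA replication genes had 8 higher and 5 lower of 30 against day 0, where 22.9% and 23.1% of all genes passed, and 27 below day 4; with each library scaled to the same median they were 7 higher and 9 lower. Rrm2 rose by 2.23 and Pold1 fell by 2.80. Among cell cycle regulators Cdkn1a (p21) was 8.97, 10.02 and 9.19 against 5.08, 5.29 and 5.21 (4.20 ± 0.36) and Ccnd2 rose by 3.86 ± 0.25. Cdkn2b (p15) had 0 reads in every day 0 library and was at least 27.6-fold higher at day 10 TLR, taking 3 reads per day 0 library as the limit. Cdk6 and Btg1 fell by 2.27 and 2.44, Cdk6 by 2.90 without day 10 TLR replicate 2.

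**Figure D4:**
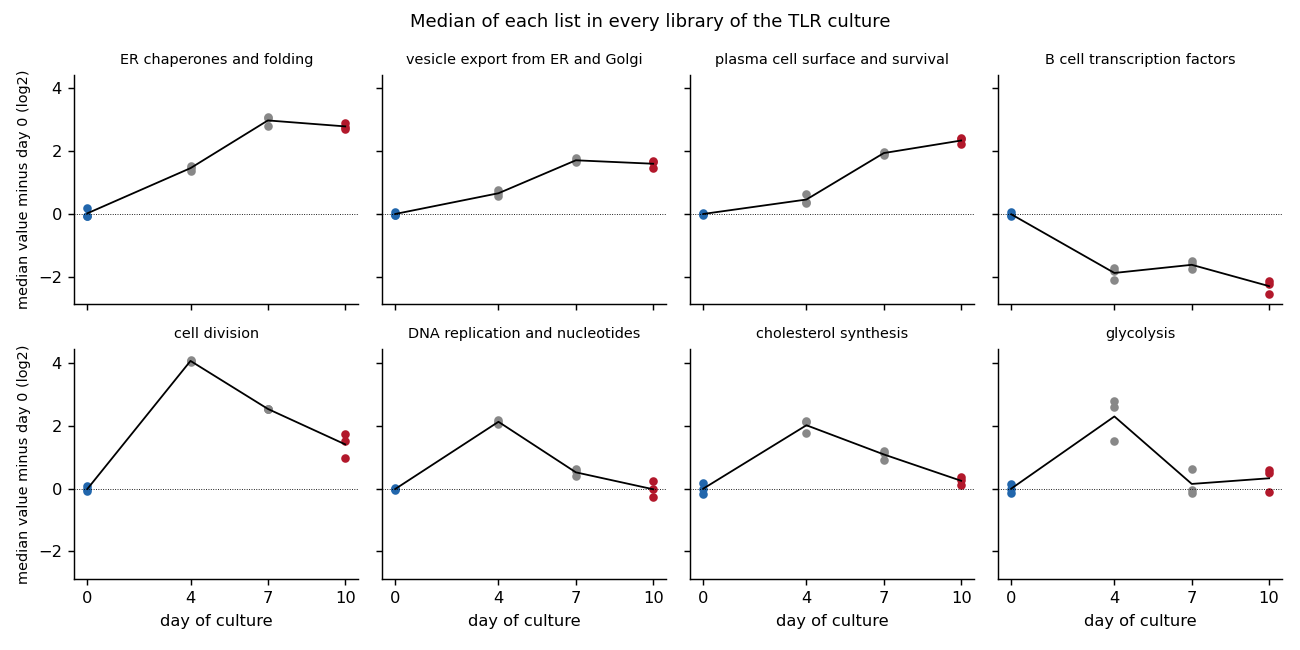
Median over the members of 8 gene lists of the deposited value minus the day 0 mean (log2), each point a library of the TLR culture at day 0, 4, 7 or 10, with the line through group means. ER chaperones reach 2.98 at day 7 and 2.79 at day 10, while cell division genes peak at 4.07 on day 4 and stand at 1.41 on day 10.

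In the BCL2 family 2 survival genes moved in opposite directions. Bcl2 was 8.35, 8.43 and 8.49 at day 10 TLR and 11.46, 11.50 and 10.95 at day 0 (-2.88 ± 0.26), and Bcl2l1 (BCL-XL) was 11.70, 10.95 and 10.96 against 6.52, 6.31 and 6.52 (4.75 ± 0.32). The pro-death members Bcl2l11 (BIM) and Bbc3 (PUMA) rose by 2.31 and 2.12, and 6 of 15 rose and 2 fell in all. For this and the next lists, the shares over all genes tested were 22.9% higher and 23.1% lower. Of interferon-stimulated genes 15 of 22 fell, led by Ifit3 (-3.10) and Mx2 (-2.85), while Isg20, Bst2 (tetherin) and Ifih1 rose by 3.07, 2.82 and 1.02; without day 10 TLR replicate 3 Ifih1 did not pass (0.82, adjusted p = 0.0809). NF-kB genes fell in 12 of 22 cases, Rel by 3.09 and Relb by 2.27, and the chemokine gene Ccl22 rose by 8.03 ± 0.29 but was 1.94 below day 4. Germinal centre and class switching genes were split, 9 higher and 6 lower of 18, and Gcsam had no read at day 10 TLR, at least 7.9-fold lower than at day 0. Of 22 autophagy genes 9 rose and 3 fell, with Wipi1 at 9.34, 9.34 and 9.23 against 4.90, 4.60 and 4.82 (4.53 ± 0.22). In immunoglobulin mRNA processing, Ell2, the elongation factor that favours secretory heavy chain mRNA, rose by 4.69, Hnrnpll by 4.77 and Eaf2 by 3.66, while Srsf3, Pcf11, Cstf2, Hnrnpf and Paf1 fell by 0.83, 0.83, 0.75, 0.48 and 0.27.

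**Figure D5:**
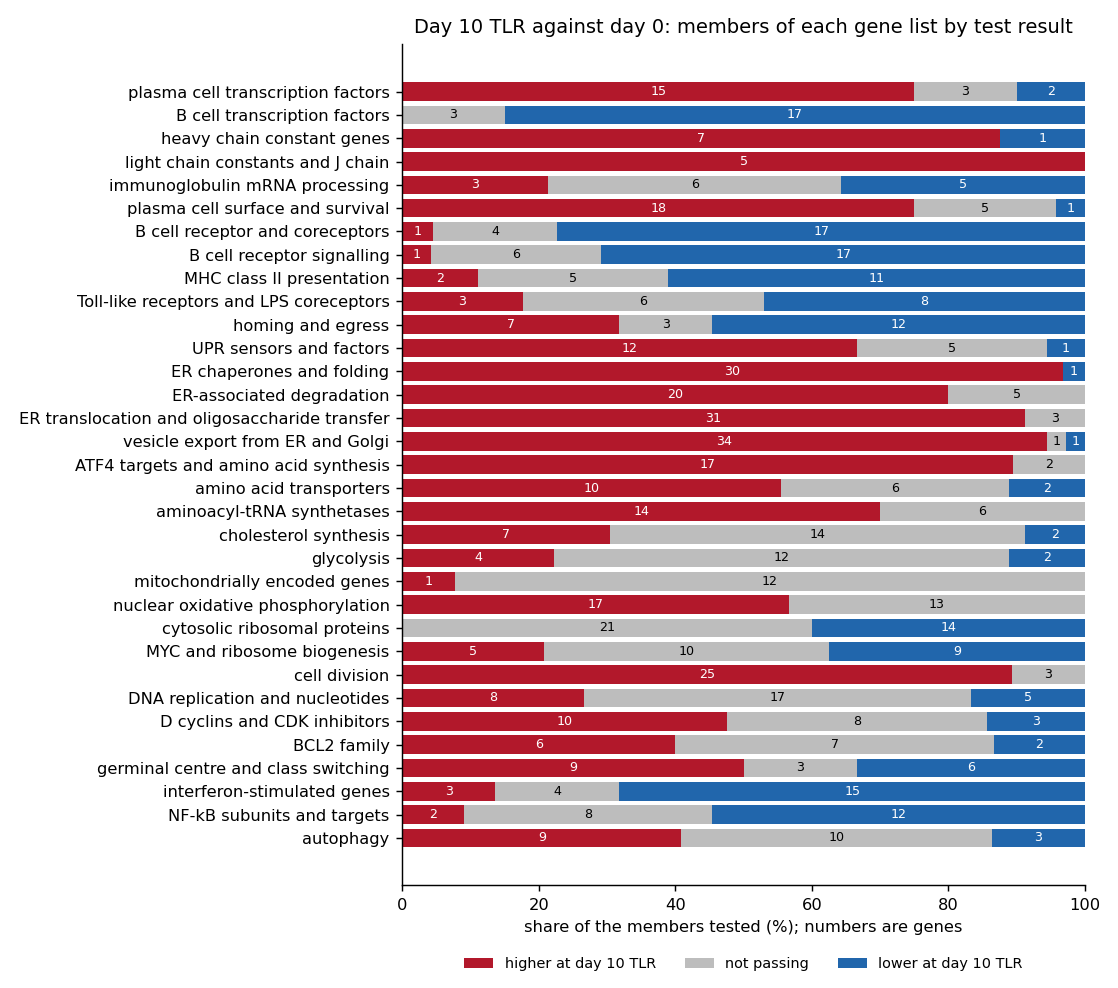
Share of the members tested (%) in each of 33 gene lists that were higher at day 10 TLR (red), did not pass (grey) or were lower (blue), with gene counts in the bars. The chaperone and vesicle export lists are nearly all red, with 30 of 31 chaperones and 34 of 36 vesicle export genes higher, and B cell transcription factors are blue in 17 of 20.

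Outside the lists, the 15 largest rises and falls among protein-coding and constant genes add a few names. Tent5c, a poly(A) polymerase that stabilises immunoglobulin mRNA, was 15.39, 15.41 and 15.74 at day 10 TLR and 7.6, 7.05 and 7.80 at day 0 (8.03 ± 0.31). Tmem176a and Tmem176b, neighbours on chromosome 6, rose by 7.86 and 7.82, Mpzl2 by 7.45, Fads3 by 7.38, Csn3 (kappa casein) by 7.29 and Hid1, a gene of secretory granule formation, by 7.26. Gpnmb, a macrophage gene, was 9.63, 15.27 and 12.46 against 3.04, 3.5 and 3.48, highest in replicate 2; the difference was 9.11 ± 0.98, 7.71 without that replicate and 10.53 without replicate 1. On the myeloid list 8 of 18 genes passed as higher with all libraries, where 22.9% of all genes did, and 5 passed without replicate 2. Spp1 rose by 6.64 with all libraries, 4.93 without replicate 2 and 8.25 without replicate 1. Lyz2 was 9.44, 14.92 and 12.08 against 8.85, 8.81 and 7.82. The falls were Icosl (-6.58), Ifi213 (-6.21), Klf4 (-5.73), Nr4a1 (-5.37), Neurl3 (-5.36), Ifi206 (-5.29), Edaradd (-5.20), Rnf144a (-5.03), Ifi208 (-5.02) and Vcam1 (-4.85). Icosl encodes the ligand for a T cell costimulator and was 6.69, 6.36 and 6.18 at day 10 TLR against 13.07, 12.97 and 12.94 at day 0. Nr4a1 is an early response gene of antigen receptor signalling, and Ifi206, Ifi208 and Ifi213 are neighbouring interferon-inducible genes on chromosome 1 whose reads may be shared. Hba-a2 and Hbb-bs fell as well, by 6.38 and 5.67, and were highest in day 0 replicate 1; without it the falls were 5.31 and 4.50, and without day 0 replicate 3 they were 7.01 and 6.38. The median of the 9 erythroid and platelet markers tested was -3.08, and -1.89 without day 0 replicate 1.

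Day 10 was tested directly against day 4 to place the changes within the culture. That comparison does not show which of them were still under way at day 10. Against day 4, 42.0% of the genes passed, 20.1% higher and 21.9% lower. Of the 4461 genes higher than at day 0, 2165 (48.5%) were also above day 4, 687 (15.4%) were below it and 1609 (36.1%) did not pass. Of the 4509 genes lower than at day 0, 2482 (55.0%) did not pass against day 4, 1518 (33.7%) were below it and 509 (11.3%) were above it. These comparisons share the day 10 libraries, so the shares are a description. By list, 28 of 31 chaperones were above day 4, and their list median relative to day 0 was 2.98 at day 7 and 2.79 at day 10. B cell receptor genes had 12 of 22 above day 4: Fcrla by 5.79, Ly6d by 3.23 and Fcgr2b by 2.74, all still under day 0.

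The TLR cells were last set against day 10 of the BCR culture. There 14.4% of genes passed, 4.29% higher and 10.1% lower at day 10 TLR; with each library scaled to the same median, 1234 were higher and 1169 lower in place of 837 and 1966. With these groups alone in the fit no gene passed and 2399 had an unadjusted p under 0.05, so calls here lean on the spread shared by all 21 libraries. Leaving out 1 library gave 686 (without BCR replicate 2) to 5524 genes (without BCR replicate 3). The largest rises were in heavy chain genes. Ighg3 was 19.75, 19.18 and 19.07 in TLR cells and 14.79, 13.32 and 14.80 in BCR cells (5.03 ± 0.40), Ighe was 11.99, 11.10 and 11.17 against 6.84, 6.57 and 8.58 (4.09 ± 0.41), and Ighm was 21.05, 20.32 and 20.53 against 17.98, 17.40 and 18.40 (2.71 ± 0.33). Ighg2c differed by 4.25 ± 0.87, by 5.71 without BCR replicate 1 and by 3.29 without BCR replicate 3, and Slpi differed by 3.31 ± 0.52. Ighe differed by 4.71 without BCR replicate 3. IgM, IgG3 and IgG1 made on average 18.4, 5.61 and 74.0% of heavy chain constant reads per kilobase in TLR cells. In BCR cells they made 7.84, 0.473 and 88.9%. LPS is known to favour IgG3 in mouse B cells, and its part in these differences was not tested. Ighg1 itself did not pass (1.19, adjusted p = 0.192), nor did Prdm1 (0.60, adjusted p = 0.214), while Xbp1 and Irf4 were 1.05 and 1.08 higher in TLR cells. Of cell division genes 24 of 28 were lower in TLR cells, Mki67 by 0.80, and of chaperones 9 of 31 were higher.

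The genes furthest below BCR cells were Tmem26 (-4.33), Cd5l (-4.22), Arg1 (-4.12), Tgm2 (-3.46) and Serpinb9b (-3.35). Cd5l and Arg1 are known macrophage genes, and Cd5l was 5.52, 10.70 and 7.14 in TLR cells, highest in replicate 2, against 12.87, 12.34 and 10.82 in BCR cells. Its difference was -5.68 without TLR replicate 2, -3.09 without TLR replicate 1 and -4.82 without BCR replicate 3. Arg1 differed by -2.82 without BCR replicate 2 and by -5.41 without BCR replicate 3, and it did not pass with voom on recovered reads (adjusted p = 0.0538). Without TLR replicate 2 and without BCR replicate 3, Tgm2 differed by -4.25 and -4.31 and Serpinb9b by -3.96 and -4.09. The myeloid list summed to 10482, 123708 and 19447 normalised reads in TLR cells and to 404946, 378397 and 51933 in BCR cells, and 9 of its 18 genes were lower in TLR cells. The part of those reads in the other differences between the cultures was not tested.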

How the data were processed

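Total RNA of wild type B-lineage cells was sequenced with a stranded kit, per the labels' protocols. Per the submitters' processing notes, the authors' tools included RSEM 1.3.0 and STAR 2.6.0c (quantification and alignment software), DESeq2 1.22.2 in R 3.5.1, and FastQC 0.11.8 with Trim Galore 0.6.0; the notes as used here give them no order or settings. The values the authors deposited are variance-stabilised expression per gene on a log2 scale, for 28196 genes in 21 wild type samples, 7 groups of 3. The floor of 3.04 is the value of a gene with 0 reads. Reads were recovered by inverting the transformation with 1 size factor per library: of values under 20 reads, 94.4 to 100.0% came out whole within 0.1 reads, where 20.0% would by chance.

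Groups came from the sample titles. Genes at least 1 above the floor in at least 3 samples were kept (19497; 1 gene with values below the floor was dropped). limma 3.58.1 in R 4.3.3 was fitted to the deposited values of all 21 samples with a mean per group and a trended prior (14 residual degrees of freedom). Tests were two-sided, and p-values were Benjamini-Hochberg adjusted over all genes kept, with 0.05 as the threshold. Between day 10 TLR and day 10 BCR, same-number correlations of deviations from the group means were 0.14, 0.44 and 0.33. Pairs of different numbers reached 0.255 (TLR 2 with BCR 1), so whether the numbers M1 to M3 pair the samples is open. No label gives a pairing, and the main fit took the samples as unpaired. A fit with the number as a block is given in the closing section. A fold limit for genes at 0 reads took 3 reads per library of the group at 0. Intervals of counting error are not given, since these reads carry no molecular identifiers. Promoter sequences came from RefSeq, build GRCm38.p6. The fit was also run on simulated counts with few genes changed and a single spread for all genes. The data differ in both respects, so that run does not bear on the calls here.

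The members, gene lists and comparisons were chosen with earlier results of these data known. Genes named are the 15 largest changes in each direction among protein-coding and constant genes without overlap, up to 4 passing members of largest change in each list with any that passed against their list, 13 genes of B cell and plasma cell identity, and the 5 largest differences each way from day 10 BCR; other members were named after their values were seen. Alternatives were the filter, the samples in the fit, replicate number as a block, GC content and length, median scaling, voom on recovered reads, robust moderation and leaving out each library. Proteins ending in an ER retrieval signal were not analysed here. A few listed genes are not reported here by name. Python 3.11.15, pandas 2.3.3, numpy 2.4.6, scipy 1.17.1 and matplotlib 3.10.9 were used.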

Additional observations from a re-analysis of the deposited data

Results flagged for a closer look

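The change from day 0 to day 10 differed between the TLR and BCR cultures for 2803 genes by the direct limma test of day 10 TLR against day 10 BCR, which equals the test of the difference in change because both cultures share the day 0 libraries. The 10 named here are the 5 largest differences each way, and with these groups alone in the fit none of them passed (adjusted p = 0.11 to 0.343). Higher in TLR cells were Ighg3 by 5.03, Ighg2c by 4.25, Ighe by 4.09, Slpi by 3.31 and Ighm by 2.71 on the log2 scale. Ighg2c was 13.61, 13.23 and 12.76 in TLR cells and 11.88, 7.94 and 7.04 in BCR cells, where the libraries spread widely. Lower in TLR cells were Tmem26 (-4.33), Cd5l (-4.22), Arg1 (-4.12), Tgm2 (-3.46) and Serpinb9b (-3.35). Arg1 was 4.46, 5.30 and 4.07 in TLR cells and 8.71, 11.32 and 6.15 in BCR cells; its difference was -2.82 without BCR replicate 2 and -5.41 without BCR replicate 3, and it did not pass with voom (adjusted p = 0.0538). Leaving out 1 library, Cd5l differed by -5.68 to -3.09 and Tgm2 by -4.31 to -2.90. Tmem26 was 3.96, 5.94 and 5.19 in TLR cells against 9.60, 10.04 and 8.44 in BCR cells. Markers of myeloid cells summed to 10482 to 123708 normalised reads in TLR cells and to 51933 to 404946 in BCR cells. Their part in the 5 genes lower in TLR cells was not tested. Tmem26 averaged 8.53 at day 0 and 9.60 at day 4 of the TLR culture. In those day 4 libraries the myeloid list summed to 1008 to 1387.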

How the results depend on the processing

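The comparison with day 0 was stable in number: leaving out 1 library gave 7691 to 8987 genes, the other settings gave 7794 to 11146, and no gene called in the main result was called in the opposite direction under any of them. Its split was 4667 higher and 6380 lower with GC and length correction and 3486 and 5187 with median scaling, which moved the median of all genes to -0.17. Against day 4 the settings gave 6362 to 10208 genes and leaving out 1 library 7020 to 7758. Against day 10 BCR, 2803 genes passed, and the count was 0 with these groups alone in the fit (limma; 2399 at an unadjusted p under 0.05), 5100 with GC and length correction, 5378 with the replicate block added to that correction and 1687 with voom. Leaving out 1 library gave 686 (BCR replicate 2) to 5524 (BCR replicate 3), with 1245 without BCR replicate 1, 988 without TLR replicate 1 and 1499 without TLR replicate 3; the cause was not tested. A group left with 2 samples borrows its spread from the others. Of these calls, 29.9% were higher in TLR cells, 51.4% with median scaling and 57.0% with GC and length correction. In the DNA replication list, lower members outnumbered the 8 higher under GC and length correction, the 8 higher with the block added and the 7 higher under median scaling. The immunoglobulin share at day 10 TLR was 61.4% of reads, 87.48% of reads per kilobase, and 58.86 to 62.72% without 1 library. Same-number correlations of deviations were 0.08, 0.08 and -0.20 with day 0 and 0.43, -0.13 and 0.57 with day 4. Pairs of different numbers ran from -0.289 to 0.288 with day 0 and from -0.581 to 0.504 with day 4. With 3 samples per group, these values cannot settle whether the titles' numbers M1 to M3 pair the samples. With the number as a replicate block 9047 genes passed against day 0, 8263 against day 4 and 2990 against day 10 BCR; the block changed no call among the 210 and 10 named genes tested against day 0 and day 10 BCR. Depth limits genes near the floor, more so at day 10.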

Other observations

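Among mitochondrially encoded genes, mt-Co3 was 11.31, 11.71 and 4.07 at day 10 TLR and 11.06, 12.00 and 10.68 at day 0, so day 10 TLR replicate 3 lies far below every other library of these groups for this gene. The list of dendritic cell and granulocyte markers summed to 458, 2895 and 443 normalised reads at day 10 TLR and to 486, 316 and 232 at day 0, and 3 of its 15 genes passed as higher and 1 as lower, where 22.9% and 23.1% of all genes did. Variable segments of day 10 BCR cells were led by Ighv3-6, with 10.4, 10.2 and 13.2% of heavy segment reads there, while Ighv1-26 led in all day 10 TLR and day 0 libraries.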
